A study of Mus musculus with 9 samples.

Results

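Voltage-gated calcium channels open when a neuron depolarizes and let calcium into the cell. Each channel is built around a pore-forming α1 subunit, which carries the voltage sensor and the pore, and auxiliary β, α2δ and γ subunits set its surface level and gating. The α1 genes expressed in brain fall into an L-type group (*Cacna1c*, *Cacna1d*), a P/Q-, N- and R-type group at presynaptic terminals and dendrites (*Cacna1a*, *Cacna1b*, *Cacna1e*) and a low-voltage-activated T-type group (*Cacna1g*, *Cacna1h*, *Cacna1i*). The mRNAs of these 8 genes were followed here across an RNA immunoprecipitation-sequencing (RIP-seq) experiment on CELF2, an RNA-binding protein that regulates splicing in the nucleus and stability and translation in the cytoplasm. The genes were taken by name from the RefSeq transcript rows of the count table. They had 192 of its 107384 rows and were 8 of the 21254 protein-coding genes with a row.

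All 9 libraries came from cortices of heterozygous CELF2 p.R493H knock-in (KI) mice at postnatal day 0, as the cytoplasmic fraction of a lysate that held neurons, glia, microglia and endothelial cells. They comprised 3 CELF2-KI RIPs and 3 IgG RIPs, each with 10 µg of rabbit antibody for 3 hours, and 3 input samples set aside before the antibody was added. Each library of a condition was a biological replicate by the study's protocol, which does not give the number of animals behind it. Since every library carried the KI allele next to a wild-type allele, binding by the mutant and by the wild-type protein cannot be told apart. The comparison with IgG RIP asks which mRNAs came down with the CELF2 antibody and not with a control antibody, and the comparison with input asks which were enriched over their level in the fraction.

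Total estimated counts were between 15919600 and 20052716 in the CELF2-KI RIPs, between 17365561 and 28773130 in the IgG RIPs and between 69125700 and 105116427 in the inputs, so input values rested on the deepest libraries. The 8 genes together held between 38114 counts, in an IgG RIP, and 239017, in an input. A row of the 45S rRNA precursor held 34.9%, 32.9% and 10.8% of the counts in IgG RIP replicates 1, 2 and 3, against at most 1.76% in CELF2-KI RIP and 0.797% in input. It was not among the protein-coding genes used for scaling. The mRNA of *Celf2* itself stood at 638 ± 164 CPM (SD, n = 3) in the CELF2-KI RIPs, 233 ± 33.4 in the IgG RIPs and 296 ± 14.9 in the inputs. CPM here scale counts to the protein-coding total of a library after TMM correction, and they are not divided by transcript length. A gene's CPM is therefore compared between conditions. It is set against that of other genes only in a ranking of all tested genes by mean CPM.

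All 8 genes passed the filter on low counts and were among the 15267 genes tested with edgeR's quasi-likelihood test, and all were among the 1527 of these with the highest mean CPM. A gene was called when its Benjamini-Hochberg adjusted p (FDR) was under 0.01 and its estimated change was at least 2-fold. Over IgG RIP, 5 of the 8 passed the FDR as higher in CELF2-KI RIP (*Cacna1b*, *Cacna1c*, *Cacna1e*, *Cacna1g* and *Cacna1i*), 1 passed it as lower (*Cacna1h*), and *Cacna1a* and *Cacna1d* did not pass. At any fold, 22.9% of all tested genes passed as higher and 19.2% as lower. Only *Cacna1b* also reached 2-fold, in a comparison that called 13.4% of all genes higher and 13.6% lower. Over input, 6 of the 8 passed as higher, against 26.8% of all genes, and *Cacna1b*, *Cacna1c* and *Cacna1g* were called, against 14.6% of all genes called higher and 15.5% called lower. *Cacna1b* was the only member called higher than both controls, which held for 7.58% of all tested genes. With total counts as the only scaling, the median of all tested genes over IgG RIP moved from -0.06 to -0.42, 937 genes were called higher and 3421 lower (2050 and 2069 with TMM), and of the 5 members only *Cacna1b* still passed the FDR, at 0.63, while *Cacna1c* (0.31), *Cacna1e* (0.23), *Cacna1g* (0.28) and *Cacna1i* (0.17) did not.

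These shares rose with mean CPM, which mixes abundance with transcript length. The mean was taken over all 9 libraries, the CELF2-KI RIPs included, so that enrichment there itself raised a gene's rank. Among the 1527 genes with the highest mean CPM, 54.3% passed the FDR as higher over IgG RIP and 63.3% over input. Of these genes, 32.6% and 35.8% were called higher, and 22.9% were called higher than both controls. Over IgG RIP the median log2 change was 0.57 for the 8 genes, 0.61 for those 1527 genes and -0.06 for all tested genes. Over input the medians were 0.93, 0.76 and 0.19. Each of the 3 CELF2-KI RIPs was above each of the 6 controls for *Cacna1b*, *Cacna1c*, *Cacna1e*, *Cacna1g* and *Cacna1i*. Such a separation held for 25.2% of all tested genes and 55.1% of those 1527. The shares of the 8 genes that passed were thus near those of other genes of high mean CPM, a set formed in part by the same CELF2-KI RIP values.

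**Figure D1:**
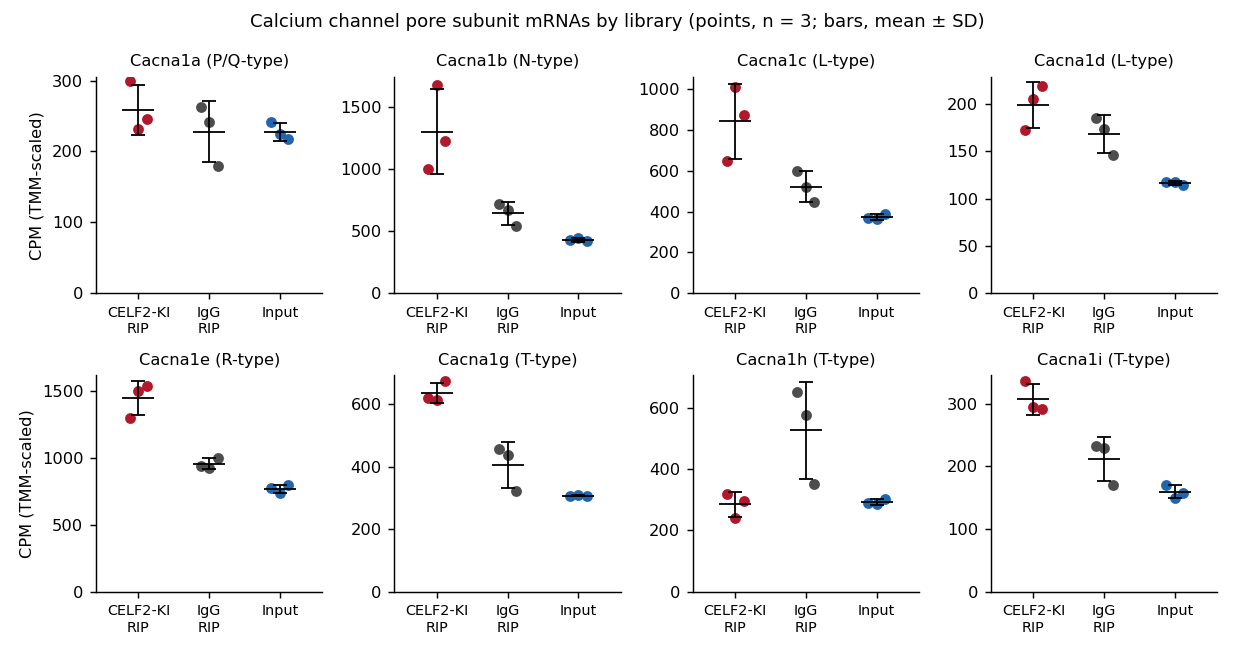
CPM on TMM-scaled library sizes (y axis, linear, from 0, with a separate scale for each gene) of the 8 pore subunit mRNAs in CELF2-KI RIP, IgG RIP and input. Points are the 3 libraries of a condition, the long bar is the mean and the short bars the SD. *Cacna1b* rose from 430 CPM in input to 643 in IgG RIP and 1300 in CELF2-KI RIP, and *Cacna1h* was highest in IgG RIP, with 527 CPM.

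*Cacna1b* (chr2:24603860-24763200; this and the spans below are from the RefSeq gene table of GRCm38.p6, the assembly also named mm10) encodes the pore of N-type channels, which trigger transmitter release at many presynaptic terminals. It had 998, 1675 and 1229 CPM in the CELF2-KI RIPs, 715, 674 and 541 in the IgG RIPs and 426, 446 and 419 in the inputs. The 3 conditions did not overlap, and CELF2-KI RIP replicate 2 was the highest library. The log2 fold change over IgG RIP was 1.02 (SE 0.18, FDR 0.000837, edgeR) and 1.60 against input (SE 0.18, FDR 4.64e-05). The 2-fold threshold over IgG RIP lay within the 95% confidence interval, 0.62 to 1.42. It was missed without CELF2-KI RIP replicate 2, at a log2 fold change of 0.79, without IgG RIP replicate 3, at 0.90, and without input replicate 2, at 0.91, although the FDR passed each time. *Cacna1b* stayed called over input without any 1 library.

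*Cacna1a* (chr8:84338631-84640251), the pore of P/Q-type channels and the other main presynaptic subunit, did not separate. It had 299, 231 and 246 CPM in the CELF2-KI RIPs, 262, 241 and 180 in the IgG RIPs and 242, 225 and 217 in the inputs, and each condition overlapped both others. The log2 fold change over IgG RIP was 0.19 (95% CI -0.15 to 0.52, FDR 0.328, edgeR) and 0.18 over input (95% CI -0.15 to 0.52, FDR 0.316), so that a 2-fold change lay outside both intervals. With total counts as the only scaling both values were negative, -0.18 and -0.27, as the median of all tested genes moved to -0.42 and -0.27.

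*Cacna1e* (chr1:154390806-154884785) encodes the R-type pore, found on dendrites and spines as well as terminals. It had 1297, 1494 and 1537 CPM in the CELF2-KI RIPs, 937, 924 and 1001 in the IgG RIPs and 771, 737 and 793 in the inputs. The conditions formed 3 separate levels, each with little spread. The log2 fold change over IgG RIP was 0.60 (SE 0.10, FDR 0.000577, edgeR) and 0.91 over input (SE 0.10, FDR 3.72e-05), both short of 2-fold.

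The L-type genes differed in size of change. *Cacna1c* (chr6:118587240-119197384), the main L-type pore of brain, heart and smooth muscle and a route from depolarization to gene expression, had 646, 1007 and 871 CPM in the CELF2-KI RIPs, 598, 519 and 447 in the IgG RIPs and 367, 362 and 387 in the inputs. Every CELF2-KI RIP was above every control, replicate 1 by the smallest margin. The log2 fold change over IgG RIP was 0.69 (SE 0.16, FDR 0.00478, edgeR) and 1.18 over input (SE 0.17, FDR 0.000165). The FDR over IgG RIP missed 0.01 without CELF2-KI RIP replicate 2 (log2 fold change 0.54) or 3 (0.67), IgG RIP replicate 2 (0.70) or 3 (0.59), or input replicate 2 (0.58), and the call over input held without any 1 library. *Cacna1d* (chr14:30039941-30491156), an L-type pore that opens at more negative voltages, had 172, 205 and 219 CPM in CELF2-KI RIP and 185, 173 and 146 in IgG RIP, which overlapped, and 118, 118 and 114 in input, below all RIP libraries. Its log2 fold change over IgG RIP was 0.24 (95% CI -0.03 to 0.52, FDR 0.124, edgeR) and 0.77 over input (SE 0.12, FDR 0.000404). With total-count scaling the value over IgG RIP was -0.13.

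The T-type genes, whose channels open near rest and support burst firing, went in different directions. *Cacna1g* (chr11:94408391-94474400) had 622, 614 and 674 CPM in the CELF2-KI RIPs, 456, 439 and 322 in the IgG RIPs and 307, 311 and 305 in the inputs. *Cacna1i* (chr15:80287238-80398292) had 335, 294 and 291 CPM in the CELF2-KI RIPs, 233, 230 and 171 in the IgG RIPs and 171, 150 and 158 in the inputs. In both, every CELF2-KI RIP was above every control. *Cacna1g* changed by 0.65 on the log2 scale over IgG RIP (SE 0.13, FDR 0.00184, edgeR) and 1.05 over input (SE 0.13, FDR 8.26e-05), which was 0.94 without input replicate 2. Over input *Cacna1g* was also under 2-fold with DESeq2 or RLE scaling (0.91 each), without a filter on low counts (0.93), with curated rows (0.97), with only the 2 conditions compared (0.83), with only IgG RIP replicate 3 kept as the IgG control (0.94) and with total counts (0.59). *Cacna1i* had 0.54 over IgG RIP (SE 0.13, FDR 0.00609, edgeR) and 0.94 over input (SE 0.13, FDR 0.000182). Over IgG RIP *Cacna1i* missed the FDR without any 1 of the 3 CELF2-KI RIPs (0.47 without replicate 1, 0.57 without 2 and 0.58 without 3), without IgG RIP replicate 3 (0.40) and without input replicate 2 (0.44).

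*Cacna1h* (chr17:25374285-25436334), the third T-type gene, was the member that was lower in CELF2-KI RIP than in IgG RIP. It had 319, 240 and 296 CPM in the CELF2-KI RIPs, 652, 578 and 350 in the IgG RIPs and 291, 285 and 302 in the inputs. CELF2-KI RIP lay below all 3 IgG RIPs and around the level of input. The log2 fold change over IgG RIP was -0.88 (SE 0.20, FDR 0.00403, edgeR) and -0.04 over input (95% CI -0.49 to 0.41, FDR 0.887). IgG RIP itself stood above input, by 0.85 on the log2 scale (SE 0.20, FDR 0.00854). Within IgG RIP the libraries with 34.9% and 32.9% of the 45S precursor had 652 and 578 CPM and the library with 10.8% had 350. That library, replicate 3, was also the lowest IgG RIP for every other member except *Cacna1e*, as in *Cacna1g* (456, 439 and 322 CPM). The part of rRNA in the result was not tested. The FDR over IgG RIP missed 0.01 without CELF2-KI RIP replicate 2 (log2 fold change -0.78) or 3 (-0.91) or IgG RIP replicate 1 (-0.71) or 2 (-0.80). Without IgG RIP replicate 3 the value was -1.11 and *Cacna1h* was called lower, and with only that replicate as the IgG control, an alternative chosen after seeing the data, it was -0.40 (FDR 0.0876).

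**Figure D2:**
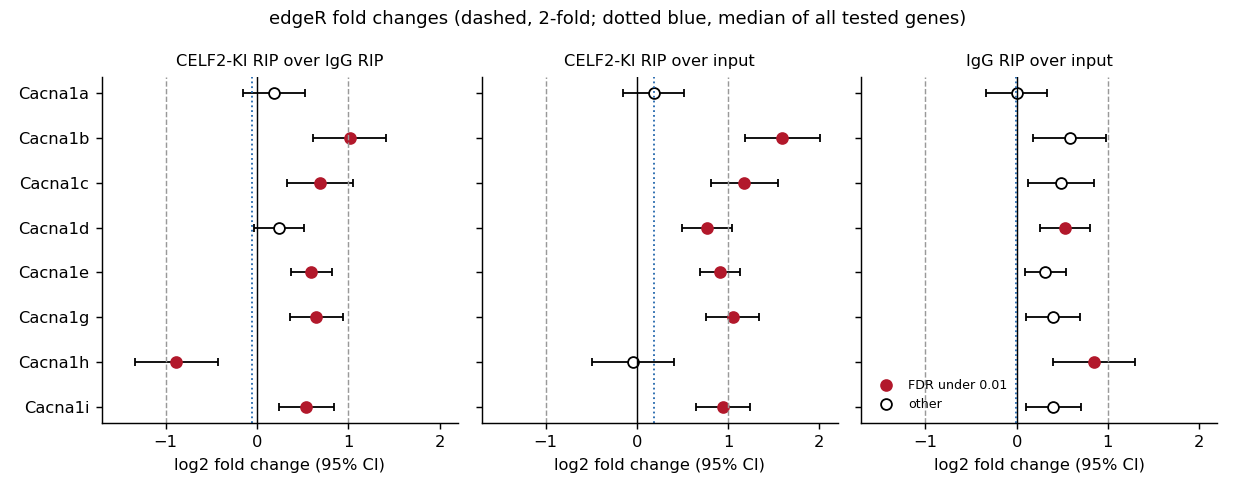
Log2 fold change of each gene (x axis) with its 95% confidence interval in the 3 comparisons, from edgeR's fit of all 9 libraries. Filled points passed an FDR of 0.01, dashed lines mark 2-fold and the dotted line the median of all tested genes (-0.06, 0.19 and -0.00 from left to right). *Cacna1b* had the highest estimate over both controls and *Cacna1h* the lowest.

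The estimate for IgG RIP was above input in 7 of the 8 genes and in 49.8% of all tested genes. The median log2 fold change was 0.44 for the 8 genes, -0.00 for all tested genes and 0.03 for the 1527 genes with the highest mean CPM. *Cacna1d* (0.53, SE 0.12, FDR 0.00781, edgeR) and *Cacna1h* passed the FDR, against 12% of all tested genes that passed as higher. None of the 8 was called at 2-fold, where 6.79% of all genes were called higher and 5% lower. Both FDR results were lost without any 1 of the 3 inputs (log2 fold change 0.50 to 0.53 for *Cacna1d* and 0.82 to 0.85 for *Cacna1h*), among other libraries, and with the replicate block (FDR 0.0195 and 0.0157, edgeR), and *Cacna1h* was called higher in IgG RIP than in input without IgG RIP replicate 3, at 1.07. *Cacna1a* stood at -0.00 (95% CI -0.34 to 0.34). The 3 comparisons share libraries, so that a low IgG RIP value enters both the first and the third.

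Within a library, each gene's share of the summed counts of the 8 genes does not depend on how libraries are scaled to each other. *Cacna1b* made up 21.3%, 29.1% and 22.9% of the family in the CELF2-KI RIPs, 17.7%, 17.8% and 17.1% in the IgG RIPs and 15.8%, 16.9% and 15.5% in the inputs. *Cacna1h* made up 6.81%, 4.17% and 5.52% in the CELF2-KI RIPs, 16.1%, 15.3% and 11.1% in the IgG RIPs and 10.8%, 10.8% and 11.2% in the inputs. The share of *Cacna1b* was thus higher than in both controls and that of *Cacna1h* lower than in both, with no overlap between libraries. *Cacna1d* was also lower than both, at 3.77% ± 0.277 (SD, n = 3) against 4.6% ± 0.0190 in IgG RIP and 4.36% ± 0.123 in input. *Cacna1a*, at 4.99% ± 1.23, was below input, at 8.52% ± 0.464, and overlapped IgG RIP, at 6.19% ± 0.434. A share is relative to the other members, and a lower share is not a lower level: *Cacna1d* itself stood 0.77 above input on the log2 scale and *Cacna1h* at -0.04. For each of these separations the exact two-sided permutation test gave p = 0.1, the smallest that 3 against 3 libraries allow, and 0.229 after adjustment over the 16 tests. The shares of *Cacna1c*, *Cacna1e*, *Cacna1g* and *Cacna1i* overlapped in both comparisons. The number of members whose shares did not overlap IgG RIP rose from 3 to 5 without CELF2-KI RIP replicate 1 or IgG RIP replicate 3. Leaving out a library can only keep or raise this number. Shares were formed within the 8 genes, so that no share over all tested genes stands beside it.

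Ratios of counts between pairs of members picked by hand restate the same counts and are not separate support. *Cacna1b* had 3.12, 6.97 and 4.15 counts for each count of *Cacna1h* in the CELF2-KI RIPs, 1.10, 1.17 and 1.54 in the IgG RIPs and 1.46, 1.56 and 1.39 in the inputs. *Cacna1g* and *Cacna1h*, both T-type, had ratios of 1.95 to 2.56 in the CELF2-KI RIPs, 0.70 to 0.918 in the IgG RIPs and 1.01 to 1.09 in the inputs. *Cacna1b* and *Cacna1a*, both presynaptic, had ratios of 3.34 to 7.24, 2.73 to 3.01 and 1.76 to 1.98. *Cacna1c* and *Cacna1d*, both L-type, had ratios of 3.75 to 4.92, 3.00 to 3.23 and 3.08 to 3.40. None of these 4 ratios in CELF2-KI RIP overlapped either control, and how often ratios of other gene pairs would separate was not computed. The ratio of *Cacna1e* to *Cacna1a*, at 4.34 to 6.46, overlapped that in IgG RIP, at 3.57 to 5.57, and not that in input, at 3.19 to 3.65. By channel class, the P/Q-, N- and R-type group held 56.8% ± 1.94 (SD, n = 3) of the family in the CELF2-KI RIPs, 50.2% ± 3.79 in the IgG RIPs and 53.3% ± 0.258 in the inputs, above both. The T-type group held 23.6% ± 3.65, 31.0% ± 3.69 and 28.4% ± 0.122, overlapping IgG RIP and below input, and the L-type group 19.6% ± 1.90, 18.8% ± 0.533 and 18.3% ± 0.297, overlapping both. Within the first group *Cacna1b* alone had a higher share than both controls, and within the T-type group *Cacna1h* alone had a lower one.

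**Figure D3:**
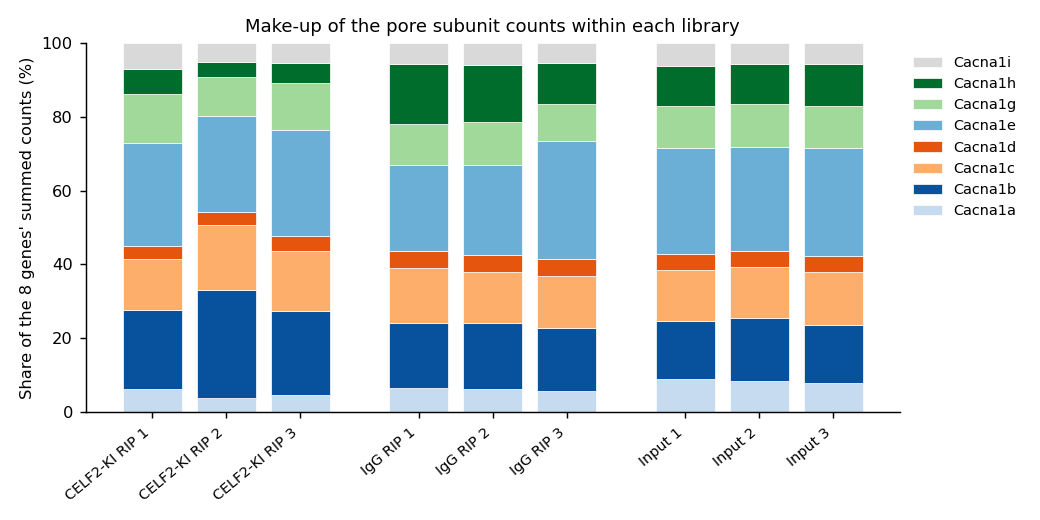
Share of the 8 genes' summed estimated counts (y axis, %) taken by each gene in each of the 9 libraries. Counts are not divided by transcript length, so segments compare between libraries and not between genes. *Cacna1b* grew to between 21.3% and 29.1% in CELF2-KI RIP and *Cacna1h* shrank to between 4.17% and 6.81%.

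Of the 192 transcript rows, 28 were curated, 157 predicted coding and 7 predicted noncoding models, and 134 had any count. Reads shared by transcripts of a gene are divided among them by the counting program, and the tests below hold the spread between libraries and not the error of that division. Rows were scaled by TMM factors computed from the rows, so a row's fold change is not on the scale of its gene's. Of the 84 rows that passed the filter, 41 were at or under 3 counts in some libraries of a condition and above it in others, and 41 were above 3 counts in all 9 libraries. Over IgG RIP 3 rows were called higher and 1 lower, against 3.19% and 3.15% of all 39137 tested rows. Over input 6 were called higher and 0 lower at the 2-fold threshold, against 0.94% and 4.51%. Of the 6, 4 belonged to *Cacna1b* and 1 each to *Cacna1c* and *Cacna1g*. With replicate number as a block, 1 row was called over IgG RIP and 1 over input. The number over IgG RIP fell from 4 to 2 without CELF2-KI RIP replicate 2 or 3 or input replicate 1 or 3 and to 1 without input replicate 2. The number over input fell to 0 without input replicate 1 or 3, to 1 without CELF2-KI RIP replicate 3 or input replicate 2 and to 2 without CELF2-KI RIP replicate 2.

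The most abundant curated *Cacna1b* transcript, NM_001042528.2, was the only row of the family called higher than both controls. It had 5525, 9840 and 6527 estimated counts in the CELF2-KI RIPs, 3607, 2468 and 2636 in the IgG RIPs and 11852, 17691 and 12704 in the deeper inputs. Its log2 fold change over IgG RIP was 1.19 (SE 0.17, FDR 0.00323, edgeR) and 1.10 over input (SE 0.17, FDR 0.00474). The gene stood at 1.60 over input in the fit of genes, and the row and gene values are on different scales. It made up 45.6% ± 1.59 (SD, n = 3) of the gene in the CELF2-KI RIPs, 34.3% ± 2.44 in the IgG RIPs and 45.7% ± 2.93 in the inputs. The row was no longer called over IgG RIP without CELF2-KI RIP replicate 3, IgG RIP replicate 1 or input replicate 2, or with the replicate block. Its call over input was lost at least without input replicate 1 or 3, where 0 rows of the family were called.

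*Cacna1b* was also 1 of 2 members with a change in transcript usage over IgG RIP, that is, rows of the gene that changed by different amounts (edgeR diffSpliceDGE, Simes FDR 0.000398, against 2.15% of the 8798 genes with several tested rows). The row with the smallest p was XM_006497633.3, with 1298, 2423 and 1339 counts in the CELF2-KI RIPs, 12.1, 3.38 and 170 in the IgG RIPs and 3056, 4333 and 1842 in the inputs. It held 10.4% ± 0.707 of the gene in the CELF2-KI RIPs, 0.801% ± 1.25 in the IgG RIPs and 9.74% ± 2.31 in the inputs, so that the IgG RIPs were the ones that stood apart. The result for *Cacna1b* was lost without IgG RIP replicate 2. Over input no member passed the test of usage (FDR 0.165 for *Cacna1b*), against 1.3% of genes, and the test had little power at the spread of these rows.

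*Cacna1g* was the other member with a change in usage over IgG RIP (FDR 0.000883, edgeR diffSpliceDGE). Its leading row, XM_006532084.3, had 591, 1168 and 55.0 counts in CELF2-KI RIP and at most 0.145 in each IgG RIP. At a floor of 3 counts per IgG library, the mean of the 3 CELF2-KI RIPs was at least 203-fold higher. This bound is for the mean and not for each library, and replicate 3 was far below the other CELF2-KI RIPs. In input it had 3608, 2565 and 4996 counts. Its share of the gene ran from 0.728% to 14.6% within CELF2-KI RIP. The bound fell to 112-fold without CELF2-KI RIP replicate 2. Of the fits that left out 1 library, the row was called over IgG RIP only in the one without CELF2-KI RIP replicate 3, and it was not called with the replicate block or without a filter on low counts. The usage result for *Cacna1g* was lost without CELF2-KI RIP replicate 2 and with replicate number as a block.

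Among the remaining called rows, XM_011246555.2 of *Cacna1h* was lower in CELF2-KI RIP than in IgG RIP by -2.24 on the log2 scale (SE 0.24, FDR 0.0012, edgeR). It had 326, 295 and 315 counts in CELF2-KI RIP and 2043, 1137 and 1000 in IgG RIP, and rose from 7.57% ± 0.907 (SD, n = 3) of the gene in input to 19.9% ± 0.521 in IgG RIP, with 9.05% ± 0.760 in CELF2-KI RIP. This row was called in every fit that left out 1 library and was the 1 row called over IgG RIP with the replicate block. The main *Cacna1h* transcript, NM_021415.4, held 81.3% ± 7.34 of the gene in the CELF2-KI RIPs, 64.0% ± 14.9 in the IgG RIPs and 83.7% ± 6.01 in the inputs, and its log2 fold change over IgG RIP was -0.69 (FDR 0.0847). XM_006518480.1 of *Cacna1d* had 54.2, 28.3 and 35.9 counts in CELF2-KI RIP and 0 in each IgG RIP. Its mean in CELF2-KI RIP was at least 13.9-fold higher at the same floor, and its log2 fold change over input was 0.40 (FDR 0.853). Its call over IgG RIP was lost without any 1 CELF2-KI RIP or any 1 input, without a filter on low counts and with the replicate block.

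**Figure D4:**
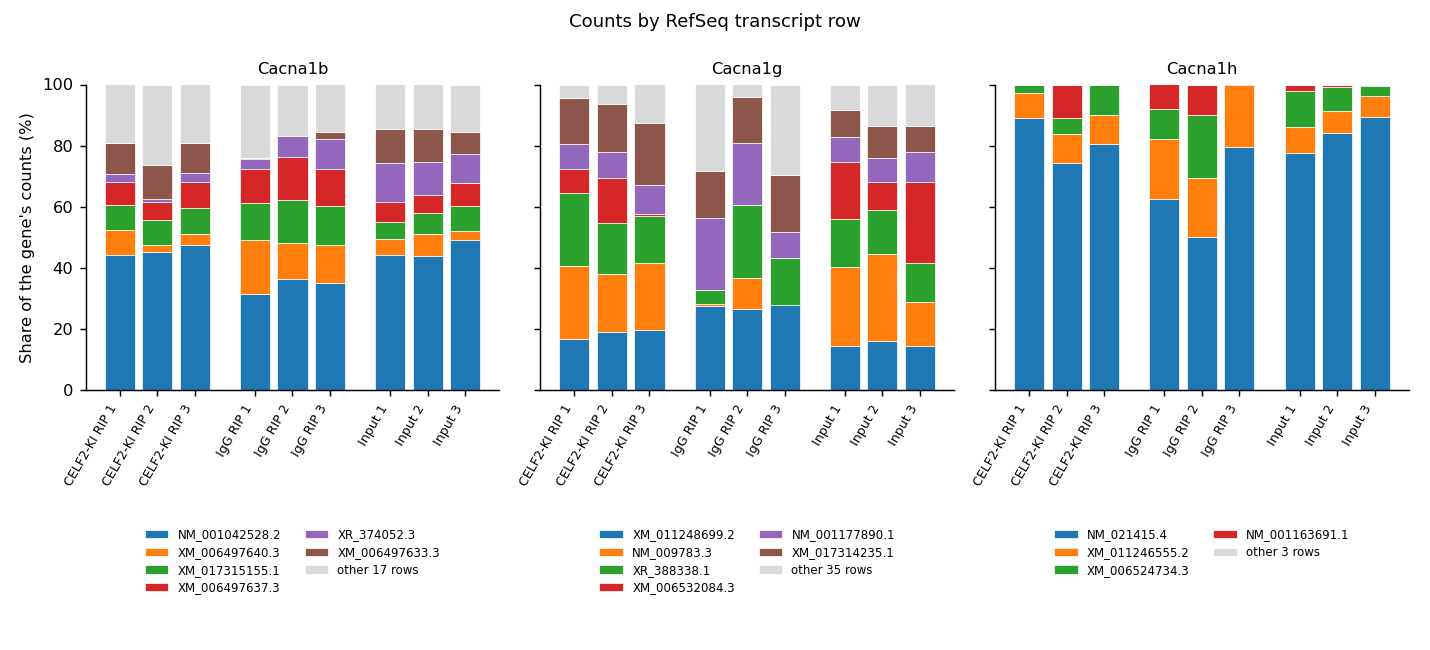
Share of the gene's estimated counts (y axis, %) in each library for the RefSeq transcript rows with the highest mean shares of *Cacna1b*, *Cacna1g* and *Cacna1h*, and for all other rows of the gene together. The row XM_006497633.3 of *Cacna1b* takes 9.72% to 11.1% in CELF2-KI RIP and 0.0498% to 2.25% in IgG RIP, and XM_011246555.2 of *Cacna1h* takes 19.5% to 20.5% in IgG RIP.

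The genes of proteins that work with the pore were described by lists chosen with earlier results of these data known. Of 21 auxiliary subunits and regulators 19 were tested (not *Cacna1s* and *Cacna2d4*), 0 were called higher than both controls, and their median log2 change was -0.07 against IgG RIP and -0.20 against input. *Cacnb3*, a β subunit that brings the pore to the membrane, was lower than both controls, with 48.9 ± 4.67 CPM (SD, n = 3) against 136 ± 31.2 in IgG RIP and 143 ± 14.4 in input, a log2 fold change of -1.48 (FDR 6.41e-05, edgeR) and -1.55 (FDR 4.16e-05). *Cacng5* and *Cacng8*, γ subunits that also serve AMPA receptors, were called higher over IgG RIP only, at 1.61 and 1.14. *Stac3*, an adaptor of the muscle L-type channel, was called lower than IgG RIP, at 0.576 ± 0.222 CPM against 3.48 ± 2.0, and stood at 0.743 ± 0.0770 in input.

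All 15 genes of the presynaptic release site were tested, with a median log2 change of 0.47 against IgG RIP and 0.79 against input. Of those named here, *Snap25* and *Syt1*, a fusion protein and the calcium sensor, were called over IgG RIP only, at 1.27 and 1.12. The scaffolds *Rimbp2* and *Bsn* and the adhesion molecules *Nrxn2* and *Nrxn3* were called over input only, at 1.07, 1.54, 1.04 and 1.33. All 4 calcium-activated potassium channels were tested, and *Kcnma1* (1.004) and *Kcnn3* (1.22) were called over input while 0 were called over IgG RIP, where *Kcnma1* reached 0.88 (FDR 0.000483) and *Kcnn3* 0.76 (FDR 0.00314).

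Neuronal markers moved with the enriched members. Of 7 excitatory neuron markers 4 (*Slc17a7*, *Slc17a6*, *Tbr1* and *Bcl11b*) were called higher over IgG RIP and 3 (not *Slc17a6*) over input, and their summed level was 1671 to 2279 CPM in the CELF2-KI RIPs, 894 to 1041 in the IgG RIPs and 971 to 1135 in the inputs. Of 5 inhibitory neuron markers 1 (*Dlx1*) was called higher over IgG RIP and 1 (*Dlx2*) lower than input, with sums of 522 to 596, 310 to 363 and 420 to 442. Of 5 radial glia markers *Fabp7* was called lower than IgG RIP and *Fabp7* and *Sox2* lower than input, with sums of 444 to 891, 528 to 620 and 895 to 1110. The 3 erythroid markers were called lower than IgG RIP and 2 of them lower than input, with sums of 58.9 to 67.5, 263 to 414 and 651 to 834. In a bulk lysate fewer cells of a type and less RNA per cell cannot be told apart, all conditions were taken from the same kind of fraction, and the part of cell makeup in the results was not tested.

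For *Cacna1c*, which smooth muscle also expresses, the 5 markers of smooth muscle and pericytes summed to 170 to 213 CPM in the CELF2-KI RIPs, 156 to 226 in the IgG RIPs and 212 to 247 in the inputs, and 1 of them, *Acta2*, was called lower than both controls and *Tagln* lower than input. Of 3 endothelial markers 0 were called over IgG RIP and 1 was lower than input, with sums of 75.7 to 105.4, 68.5 to 154 and 108 to 167. Of 3 tested microglial markers (*P2ry12* was not tested) 1 (*Cx3cr1*) was called higher over IgG RIP, and 1 (*Csf1r*) was called higher and 1 (*C1qa*) lower than input. Their sums were 89.3 to 122, 43.4 to 58.4 and 78.0 to 101. *Csf1r* was near the floor, with 0, 2.93 and 3.39 CPM in the CELF2-KI RIPs and 0 in each input. Of markers of neighbouring regions, 3 thalamic markers summed to 14.5 to 68.2, 16.4 to 19.1 and 18.01 to 25.9 CPM and 3 striatal markers summed to 62.9 to 72.1, 55.3 to 62.1 and 84.9 to 87.9. None of these 6 was called over IgG RIP, and 1 striatal marker was lower than input.

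The likeness of 2 genes was measured as the root mean square difference of their log2 CPM over the 9 libraries after centring each on its mean, where 0 is the same profile. Among the members, *Cacna1g* and *Cacna1i* were most alike, at 0.105, and *Cacna1b* and *Cacna1h* least, at 0.873. *Cacna1h* differed by at least 0.462 from each of the other members. Over all tested genes, the profile nearest to *Cacna1b* was that of *Mdga2* (0.0481), which encodes a synaptic adhesion regulator and rose by 1.005 over IgG RIP and 1.62 over input on the log2 scale. *Tnk2* was nearest to both *Cacna1g* (0.0573) and *Cacna1i* (0.0791). The nearest genes were *Mtmr3* for *Cacna1e* (0.0434), *Zfp536* for *Cacna1c* (0.0593), *Fan1* for *Cacna1d* (0.0671), *Trpc4* for *Cacna1a* (0.0698) and *Ciao3* for *Cacna1h* (0.0904).

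The genomic spans of some members, which include introns, are given beside their changes. An effect of transcript length was not tested. *Cacna1g* and *Cacna1h* have the shortest spans, 66010 and 62050 bases, and stood at 0.65 and -0.88 over IgG RIP, while *Cacna1c*, with the longest at 610145 bases, stood at 0.69. *Cacna1b* spans 159341 bases.

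**Figure D5:**
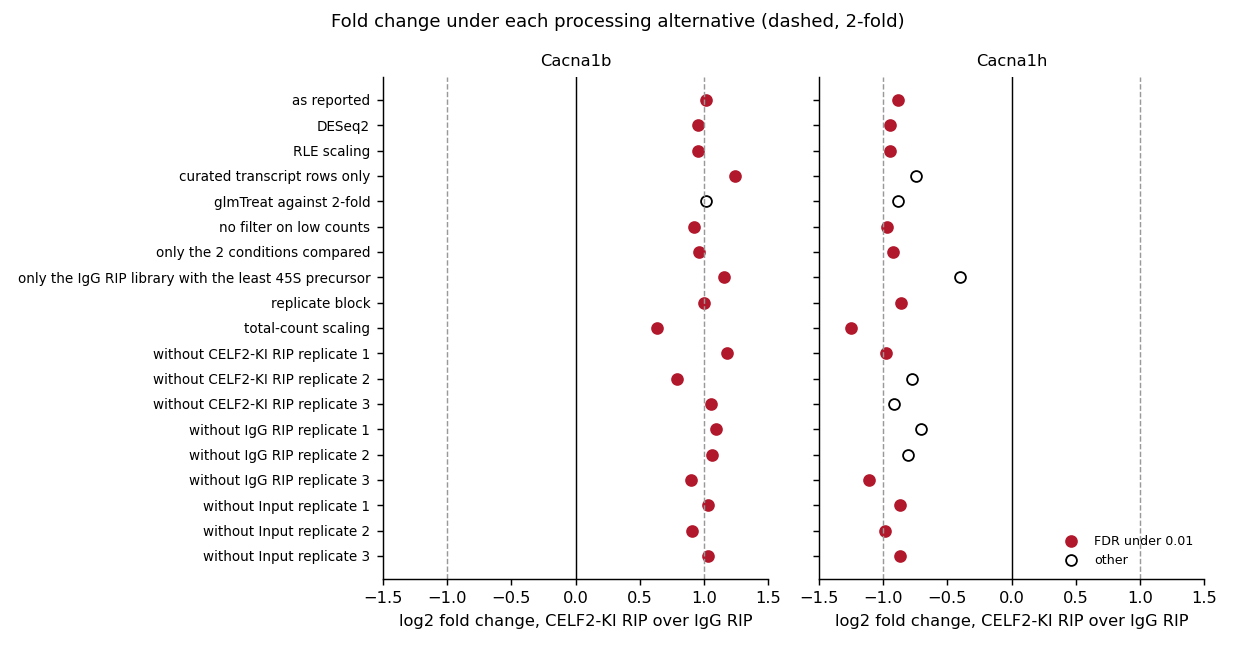
Log2 fold change of *Cacna1b* and *Cacna1h* in CELF2-KI RIP over IgG RIP (x axis) as reported and under 18 alternatives of scaling, filter, test and library choice (y axis). Filled points passed an FDR of 0.01 and dashed lines mark 2-fold. *Cacna1b* stayed between 0.63 and 1.24 and *Cacna1h* between -1.25 and -0.40.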

How the data were processed

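RIP-seq was measured in 9 libraries (3 CELF2-KI RIPs, 3 IgG RIPs and 3 inputs), with groups taken from the sample titles. The study describes rRNA depletion, directional libraries, FastQC 0.11.9, trimming by fastp 0.23.4, Ribodetector 0.3.1 against rRNA reads and pseudoalignment by kallisto 0.51.1. What the authors deposited are its estimated counts per RefSeq transcript, neither scaled for depth nor for length, although the methods name an Ensembl transcriptome. The submitters' processing notes name mm10, edgeR 4.4.0 and DESeq2 1.46.0. All 9 count columns were used and 0 were left out.

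Rows were matched by accession to the RefSeq gene table (86722 of 107384 matched; the rest were left out), summed per gene and rounded. Protein-coding genes that reached 0.5 CPM in 3 or more libraries were tested with edgeR 4.0.16 (R 4.3.3, TMM, quasi-likelihood, all 9 libraries, no covariate). Single rows were treated alike but with TMM factors computed from the rows, and diffSpliceDGE was used for usage. A call needed an FDR under 0.01 and 2-fold. DESeq2 1.42.0, other scalings and filters, a replicate block and leaving out each library were alternatives. The steps were tested on simulated data. The usage test missed its first recovery criterion there, which was then limited to abundant rows after that outcome was seen, and it recovered none of the changes made at the spread of the rows themselves, so that a usage result that missed the threshold carries little information. Replicates differed by more than sampling noise (chi-square per gene 11.8 to 43.0). P-values measure the spread between these libraries; reads carry no molecular identifiers, so floors cover counting error only.

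Genes named are the 8 members, *Celf2*, list genes called in a CELF2-KI RIP comparison and each member's nearest profile, except that single results of some list genes are not reported here; rows that were not called were added after their values were seen. The members and lists were chosen with earlier results of these data known. Across genes, which are not independent, deviations of same-numbered libraries had r of 0.127, 0.109 and 0.132 for CELF2-KI RIP with input. For IgG RIP, r was -0.059, 0.032 and 0.008 with CELF2-KI RIP and 0.032, 0.088 and 0.037 with input. All these values were small and differently numbered libraries were not compared. Whether replicate numbers mark paired libraries was therefore not tested. Transcript lengths and sequences were not used here.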

Additional observations from a re-analysis of the deposited data

How the results depend on the processing

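Across 18 alternatives *Cacna1b* was above 0 over IgG RIP in 18, with an FDR under 0.01 in 17 (not against the 2-fold threshold itself) and at least 2-fold in 9, and it was called over input in 18. The number of members called over IgG RIP fell from 1 to 0 with DESeq2, RLE scaling, glmTreat against 2-fold, no filter on low counts and only the 2 conditions compared. With total-count scaling *Cacna1h*, called lower, took the place of *Cacna1b*. The number called higher than both controls was 0 in each of these 6 settings. Over input it fell from 3 to 1 with glmTreat, with only the 2 conditions compared and with total-count scaling, and to 2, without *Cacna1g*, with DESeq2, RLE scaling, no filter, curated rows and only the IgG RIP library with the least 45S precursor, the last chosen after seeing the data. Without filter, 2 and not 4 rows were called over IgG RIP. Causes were not tested.

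With the replicate block, 0 members were called over IgG RIP (*Cacna1b* at a log2 fold change of 0.999, just short of 2-fold) and 0 over both controls, 1 member changed in usage (*Cacna1b*), and 1 row was called over IgG RIP and 1 over input. The 3 member calls over input were kept. The FDR over IgG RIP was then 0.0124 for *Cacna1c*, and that of IgG RIP over input 0.0195 for *Cacna1d* and 0.0157 for *Cacna1h*. The row kept over IgG RIP was XM_011246555.2.

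Leaving out each library in turn gave 0 to 1 members called over IgG RIP, 0 to 1 over both controls, 2 to 3 over input, 0 to 1 for IgG RIP over input, 1 to 2 changed in usage, 3 to 5 separated in share of the family, 1 to 5 rows over IgG RIP and 0 to 8 rows over input. A condition left with 2 libraries was assumed to vary like the others.

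Signs that reversed were of values that missed the FDR in those settings. They were *Cacna1a* over IgG RIP (-0.18 with curated rows and -0.18 with total counts), *Cacna1a* over input (-0.038 with the 2 conditions alone and -0.27 with total counts), *Cacna1a* in IgG RIP over input (0.29 with curated rows, 0.0005 without CELF2-KI RIP replicate 2, 0.15 without IgG RIP replicate 3 and 0.026 without input replicate 1; -0.11 to 0.15 over all 9 fits without 1 library), *Cacna1d* over IgG RIP (-0.13 with total counts), *Cacna1h* over input (0.074 without CELF2-KI RIP replicate 2; -0.17 to 0.074 over those fits) and, in IgG RIP over input with curated rows, *Cacna1d* (-0.30), *Cacna1e* (-0.011) and *Cacna1i* (-0.12). Of the other values for single genes, 344 kept their side of the FDR threshold, 71 lost it and 4 passed it newly. Total-count scaling moved the median of all tested genes to -0.42 over IgG RIP and -0.27 over input.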
